A study of Mus musculus with 25 samples.

Results

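Sarcomeric myosin heavy chain genes were examined for Spin1 and H3K4me3 peaks in primary myoblasts. The 9 genes, Myh1, Myh2, Myh3, Myh4, Myh6, Myh7, Myh7b, Myh8 and Myh13, were taken by name and located in RefSeq, which holds 26182 genes with a curated transcript on the 21 chromosomes examined. Peaks were sought at the promoter (TSS±1 kb), in the gene body, and in windows that reach 50 kb beyond the outer genes. The series asks how the histone code reader Spin1 acts in skeletal muscle, and 2 of its 25 samples are used here. They are ChIP-seq libraries of primary myoblasts from the limb muscle of C57BL/6 N mice at postnatal day 10, enriched by preplating and grown in culture, precipitated with antibody SPIN1-5867 or with an antibody against H3K4me3. The title and the methods name H3K4me3, whereas the antibody label of this sample reads anti-H3K4me, so the mark rests on the title and the methods. Each antibody gave 1 library, so there were no replicates, and peaks are described without a test. The depth of the libraries is unknown, since the lists hold no reads. Input DNA and the RNA-seq data (22 samples) were not analysed here, and no statement on expression is made.

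Sarcomeric myosin heavy chains are the motor proteins of the thick filament. Each carries an ATPase head that pulls on actin and a coiled-coil tail that assembles into the filament. Muscle fibers exchange one isoform for another in development, from embryonic and perinatal to adult fast or slow forms, and the isoform present largely sets the speed of contraction. Proliferating myoblasts are precursors that have not yet built sarcomeres. H3K4me3 is a histone mark of promoters, and Spin1 binds to it.

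None of the 9 genes was occupied by Spin1 at the promoter, whereas 50.7% of all genes were. H3K4me3 was present at 3 of the 9 promoters, those of Myh3, Myh1 and Myh8, against 61.9% of all genes. Both peaks together were thus found at 0 of 9 promoters and at 50.6% of all genes. The state of Myh3, Myh1 and Myh8, H3K4me3 without Spin1, was shared by 11.3% of all genes. Neither peak was found at the promoters of the other 6 genes, Myh2, Myh4, Myh6, Myh7, Myh7b and Myh13, and at 38.0% of all genes. With only the 50% of peaks scored highest, H3K4me3 was left at Myh3 only, and at 56.6% of all genes. With a score of at least 100, Myh8 lost its call, and Myh1 and Myh3 kept theirs. When the peak center had to lie in the promoter window, Myh3 lost its call, Myh1 and Myh8 kept theirs, and the share of all genes fell to 50.5%.

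Outside the promoter window, only Myh3 and Myh7b had a peak within 2 kb of the TSS for an antibody without a peak within 1 kb. This was a Spin1 peak at Myh3, a state of 0.775% of all genes, and an H3K4me3 peak at Myh7b, a state of 1.05% of all genes. Gene bodies held Spin1 at 1 of the 9 genes and H3K4me3 at 4. In protein-coding genes of 20 to 50 kb, a range of length that includes all 9 genes, these shares were 69.0% and 81.7%. Bodies were counted from the TSS, so peaks that cover the TSS were included in all these counts. At Myh3, Myh1 and Myh8, the promoter H3K4me3 peak was thus counted again. The body shares are therefore not separate from the promoter shares. The bodies of Myh2, Myh4, Myh6, Myh7 and Myh13 held neither peak, which was the case for 18.1% of the 4826 genes of this length. Myh3 was therefore the only member with Spin1 in its body. With only the 50% of peaks scored highest, this peak was lost, so 0 members had Spin1 in the body and 1 had H3K4me3. The shares of other genes under this limit were not counted for gene bodies, so the drop is not read as particular to the members.

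**Figure D1:**
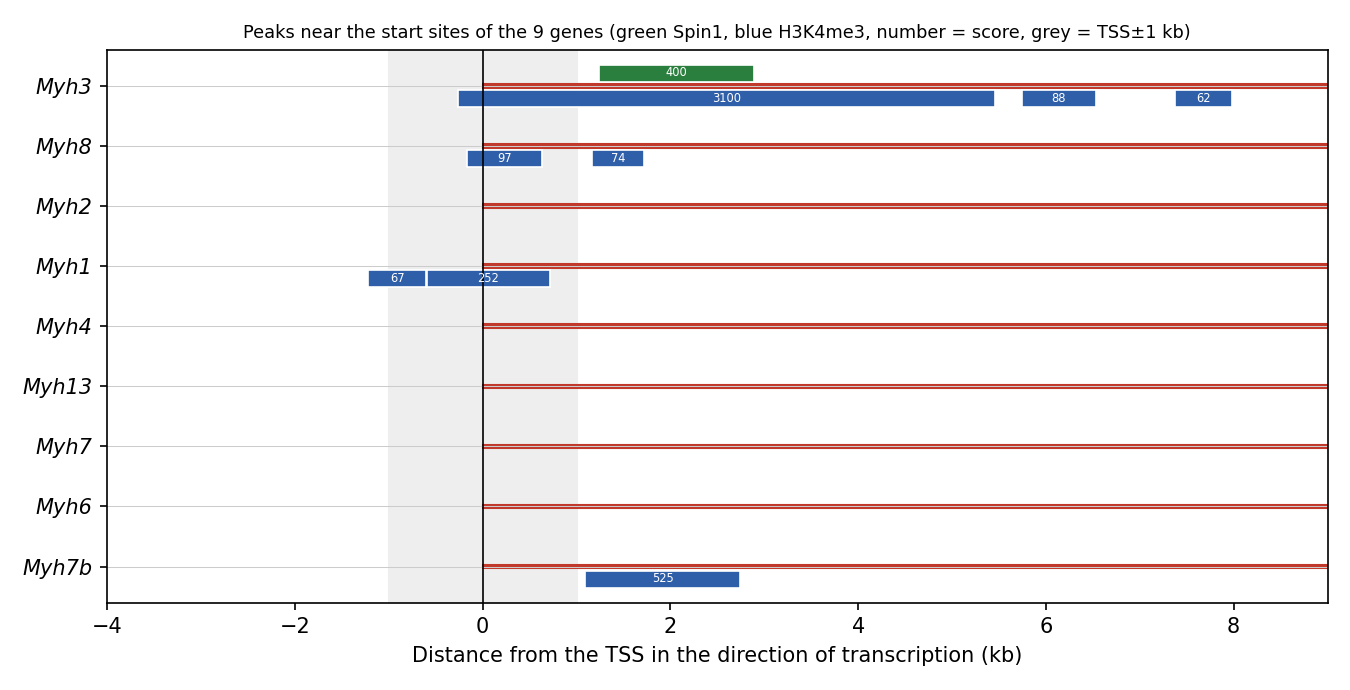
Peaks near the TSS of each gene, with the distance in kb in the direction of transcription. Green bars above the gene line are Spin1 peaks and blue bars below it are H3K4me3 peaks, with the MACS score inside, and the grey area is TSS±1 kb. Spin1 appears at Myh3 only, and Myh2, Myh4, Myh13, Myh7 and Myh6 are empty.

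Myh3 encodes the embryonic isoform, which is made early in muscle development and again in regenerating fibers. The gene lies on the plus strand at chr11:67078300-67102291 of GRCm38. Of its 41 exons, exon 3 holds the start codon. Its TSS was covered by an H3K4me3 peak of 5727 bp (chr11:67078037-67083763) with a score of 3100. The score, given by MACS, is -log10 of the peak's p-value multiplied by 10. The peak reached from 263 bp upstream of the TSS to 5463 bp downstream, over exons 1 to 7, and covered 63.2% of the promoter window. It was wider than 95.8% of the H3K4me3 peaks. Most of its length therefore lay inside the gene, downstream of the promoter window. Farther into the gene, 2 weaker H3K4me3 peaks followed. The one over exons 8 to 9 (chr11:67084047-67084830) had a score of 87.9, and the one in intron 10 (chr11:67085675-67086287) had a score of 61.5.

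The H3K4me3 peak of Myh3 held the single Spin1 peak of the family. This peak (chr11:67079537-67081187) was 1651 bp wide and had a score of 399.7, above 34.5% of the Spin1 peaks. It began 1237 bp downstream of the TSS and ended at 2887 bp, running from intron 2 over exon 3 into intron 3. The start codon, 1699 bp downstream of the TSS, was inside it. All of its bases were within the H3K4me3 peak, of which it took 28.8%. Spin1 thus sat downstream of the Myh3 TSS, 237 bp outside the promoter window, in the marked region but not over its start.

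Myh3 was set beside the other wide H3K4me3 peaks. Of 14028 H3K4me3 peaks that cover a TSS, 1218 or 8.68% were at least as wide as that of Myh3. Spin1 was present in 1211 or 99.4% of these, with a median best score of 3100 and a median of 65.1% of the H3K4me3 bases under Spin1. In 13 or 1.07% of these 1211 peaks, the best Spin1 score was lower than that of Myh3. The Myh3 peak was therefore among the widest marked by H3K4me3 and at the low end of the Spin1 scores of such peaks. Among the 2961 genes with H3K4me3 but no Spin1 at the promoter, the H3K4me3 peak at the promoter held a Spin1 peak outside the window at 151 or 5.10% (95% Wilson confidence interval 4.36 to 5.95%). At 57 genes or 1.93% (1.49 to 2.49%), such a gene also had Spin1 in its body, as Myh3 did. Mybpc1, which encodes the slow form of myosin binding protein C and was singled out after its values were seen, was another of them. Its nearest Spin1 peak began 1203 bp from the TSS.

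The bases before the Myh3 TSS are shown because all of them lie inside the H3K4me3 peak and none inside the Spin1 peak. They are at chr11:67078050-67078299 on the plus strand of GRCm38.p6, from RefSeq, and the capitals mark the letters TATAAA, which start 29 bases before the TSS.
Myh3 promoter: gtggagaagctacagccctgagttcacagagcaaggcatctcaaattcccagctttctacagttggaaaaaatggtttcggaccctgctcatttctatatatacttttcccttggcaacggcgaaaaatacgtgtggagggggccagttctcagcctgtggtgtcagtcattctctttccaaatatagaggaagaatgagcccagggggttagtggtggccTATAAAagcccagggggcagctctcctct
The middle of the Myh3 Spin1 peak (chr11:67080263-67080462, plus strand) is shown beside it. It is intronic throughout, and the capitals mark its 1 match to the letters CANNTG, the E-box bound by myogenic bHLH factors. A match is a description of letters and not of binding.
Myh3 Spin1 peak: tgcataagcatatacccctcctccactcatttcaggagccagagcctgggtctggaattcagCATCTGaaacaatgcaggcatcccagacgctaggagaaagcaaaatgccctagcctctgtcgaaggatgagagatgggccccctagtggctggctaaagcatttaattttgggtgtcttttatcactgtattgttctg
The whole Spin1 peak of Myh3 had 48.8% GC, 18.2 CpG per kb and 4.85 E-boxes per kb. The medians of the Spin1 list were 52.4%, 36.8 and 4.35. CpG was thus sparser at Myh3 than in the typical Spin1 peak, with E-boxes at a similar density.

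Myh8 encodes the perinatal isoform, which precedes the adult fast forms (chr11:67277124-67308634, plus strand). Its TSS was covered by an H3K4me3 peak of 801 bp (chr11:67276955-67277755) with a score of 97.5, above 16.9% of the list. A further H3K4me3 peak (chr11:67278284-67278845), with a score of 73.6, began 1160 bp downstream, and its last base lay 1721 bp from the TSS, just before the start codon at 1733 bp. The promoter window was covered to 40.0%. No Spin1 peak was found in the gene, and the nearest was 178 kb downstream. Myh8 thus had the mark at its start, in short peaks of low score, and the largest distance to Spin1 of the 9 genes.

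The adult fast isoforms are encoded side by side by Myh2 (IIa, chr11:67171027-67197517), Myh1 (IIx, chr11:67200102-67224575) and Myh4 (IIb, chr11:67237812-67260447), all on the plus strand. Of these genes, only Myh1 carried H3K4me3. A peak of 1315 bp with a score of 252 (chr11:67199504-67200818) covered the TSS, from 598 bp upstream to 716 bp downstream, over exons 1 to 2. A weaker peak of 618 bp with a score of 66.9 (chr11:67198885-67199502) lay directly upstream, and both together covered 85.8% of the promoter window. The antisense gene 9430073C21Rik of GENCODE, singled out after its values were seen, starts at chr11:67199234 within this upstream peak. Its part in the H3K4me3 signal at Myh1 was not tested.

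Myh2 and Myh4 had no peak at the promoter or in the gene. The nearest H3K4me3 peaks, 27.9 kb from the TSS of Myh2 and 37.0 kb from that of Myh4, were those at Myh1. The nearest Spin1 peak of all 3 adult fast genes was the one in Myh3, at 89.8 kb from Myh2, 119 kb from Myh1 and 157 kb from Myh4. The 3 genes are adjacent, yet their H3K4me3 states differed. Myh13, the isoform of extraocular and laryngeal muscle (chr11:67327103-67371587, plus strand), closes the cluster. It had no peak, with the nearest H3K4me3 peak 48.3 kb upstream, in Myh8, and the nearest Spin1 peak 128 kb downstream.

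**Figure D2:**
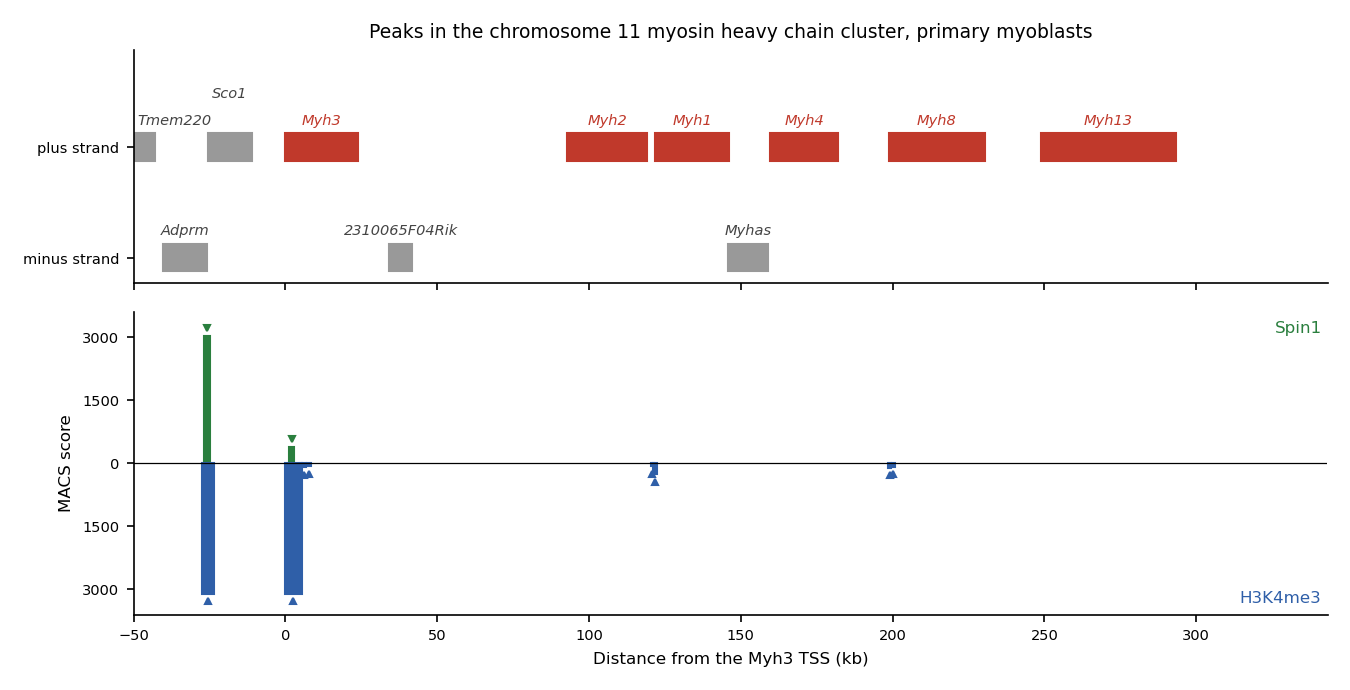
Genes (top, red for myosin heavy chains) and peaks (bottom, Spin1 upward and H3K4me3 downward, height is the MACS score) along the cluster, in kb from the Myh3 TSS. Triangles mark each peak, and narrow peaks are drawn at a minimum width. Spin1 peaks are at the Adprm and Sco1 start sites and in Myh3, and the region from Myh2 to Myh13 has weak H3K4me3 peaks and no Spin1 peak.

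The whole chromosome 11 window (chr11:67028300-67421587) spans 393 kb and held 2 Spin1 and 8 H3K4me3 peaks. Spin1 covered 0.93% of it and H3K4me3 3.69%, against 1.21% and 2.48% of the genome. With flanks of 10 kb, 1 Spin1 peak was left and covered 0.53%, and with flanks of 100 kb there were 4, which covered 1.23%, no longer below the genome. With a score of at least 100, 3 H3K4me3 peaks were left in the window, and with only the 50% of peaks scored highest 2 H3K4me3 and 1 Spin1 peak. The other Spin1 peak of the window, with a score of 3038, lay over the shared start region of Adprm, a nucleotide hydrolase gene, and Sco1, a copper chaperone gene. An H3K4me3 peak with a score of 3100 was found there too. Tmem220, a membrane protein gene at the edge, had both peaks at its promoter, outside the window. The myosin genes thus lay beside genes with both peaks at the promoter. From the end of the Myh3 Spin1 peak, 374 kb without Spin1 followed (chr11:67081188-67454801), longer than 91.8% of the gaps between Spin1 peaks, whose median was 41.3 kb. This share counts gaps and not genes. All of Myh2, Myh1, Myh4, Myh8 and Myh13 lay in this gap. H3K4me3 left gaps of 113 kb between Myh3 and Myh1, 76.1 kb between Myh1 and Myh8 and 175 kb from Myh8 on, against a median of 25.0 kb. No peak was found at the noncoding genes 2310065F04Rik, Mir6923 and Myhas of this window.

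Promoter sequences from RefSeq (250 bases before to 50 after the TSS) were found for all 9 genes. At Myh13, the curated TSS is also where the start codon begins, and GENCODE places the TSS farther upstream, at chr11:67321658. The promoter values of Myh13 rest on the curated position. The longest run of letters shared by 4 of them had 14 bases and was present at Myh1, Myh2, Myh4 and Myh8. It was found in 4 of 32851 promoters on either strand, that is 0.0122%, so in no other promoter searched. Sequence outside these promoters was not searched. The run started 125 bases before the TSS at Myh2, 160 at Myh1, 158 at Myh4 and 54 at Myh8. The sequences are shown because these 4 genes share the letters but not the peaks, with the run inside an H3K4me3 peak at Myh1 and Myh8 and in no peak at Myh2 and Myh4. They are on the plus strand of GRCm38.p6, at chr11:67170822-67170955 for Myh2, chr11:67199862-67199995 for Myh1, chr11:67237574-67237707 for Myh4 and chr11:67276990-67277123 for Myh8, with the shared run in capitals.
Myh2: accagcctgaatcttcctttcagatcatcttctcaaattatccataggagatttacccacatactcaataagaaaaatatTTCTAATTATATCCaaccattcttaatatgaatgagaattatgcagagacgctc
Myh1: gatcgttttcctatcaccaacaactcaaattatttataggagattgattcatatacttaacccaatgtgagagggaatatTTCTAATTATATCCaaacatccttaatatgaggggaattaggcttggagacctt
Myh4: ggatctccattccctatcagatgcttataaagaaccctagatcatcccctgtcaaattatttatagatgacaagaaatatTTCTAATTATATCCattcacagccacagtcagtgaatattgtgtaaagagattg
Myh8: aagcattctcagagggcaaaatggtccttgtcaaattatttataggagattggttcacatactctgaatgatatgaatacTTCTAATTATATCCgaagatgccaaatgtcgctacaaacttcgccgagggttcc
The shared letters are rich in A and T and lie in a stretch of wider similarity. Myh1, Myh2 and Myh4 shared 20 bases in a row, which include the run. Myh1 and Myh8 shared 22 bases at another place, upstream of the run.

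The letters TATAAA occurred on either strand in 6 of the 9 promoters, against 13.6% of all promoters. On the strand of the gene and starting 45 to 15 bases before the TSS, they were found at Myh1, Myh3 and Myh4, against 2.25% of all promoters. At Myh2 they began 10 bases after the annotated TSS and at Myh6 1 base after it. CANNTG was present in 7 of the 9, all but Myh1 and Myh2, and in 72.3% of all promoters. The members with a TATAAA at this distance thus included Myh3 and Myh1, which carried H3K4me3, and Myh4, which did not.

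CpG dinucleotides were counted. Their number in the 300 bases was 4 or less at 7 of the 9 genes, 6 at Myh8 and 9 at Myh2. At most 4 were present in 38.0% of all promoters and in 26.8% of those of protein-coding genes. The median was 7.0 in all promoters, below the number at Myh2, and 14 in protein-coding ones. Of the 5499 protein-coding promoters with at most 4 CpG, 6.51% (5.89 to 7.19%) had Spin1 at TSS±1 kb and 13.0% (12.1 to 13.9%) had H3K4me3. With 5 to 9, the range of Myh8 and Myh2, the shares were 30.9% (29.3 to 32.6%) and 49.9% (48.1 to 51.6%) of 3027 promoters. With 10 or more, the shares were 84.6% (83.9 to 85.2%) and 96.1% (95.8 to 96.5%). Of the 9 genes, 7 thus belonged to the class with the lowest shares of both peaks, and Myh8 and Myh2 to one in which H3K4me3 was about as often present as absent. The part of CpG content in the states of the 9 genes was not tested.

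The score of H3K4me3 varied with Spin1 across all genes. With a best H3K4me3 score of 50 to 100 at the promoter, the range of Myh8, 3.38% (1.72 to 6.52%) of 237 genes had Spin1 there. At 100 to 300, the range of Myh1, the share was 7.51% (5.18 to 10.8%) of 346 genes. Between 300 and 1000 it was 9.17% (7.05 to 11.9%), and between 1000 and 3100 it was 19.3% (16.7 to 22.3%). At 3100 or more, the value of Myh3, it was 91.0% (90.5 to 91.4%) of 14307 genes. Scores piled up at 3100, with only 54.8% of the H3K4me3 peaks and 69.1% of the Spin1 peaks below it, so genes at 3100 were not ordered by score. Spin1 was thus absent from most promoters in each range below 3100, which included Myh8 and Myh1. It was present at most promoters with a score of 3100 or more. Myh3 belonged to this class but had no Spin1 at its promoter.

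Myh7 encodes the slow isoform, also called beta cardiac myosin (chr14:54970684-54994626, minus strand), and Myh6 the alpha isoform of the heart (chr14:54941921-54966607, minus strand). Neither gene had a peak at the promoter or in the body. From the Myh7 TSS, the nearest Spin1 peak was 19.6 kb upstream and the nearest H3K4me3 peak 19.3 kb upstream, both at the start of Ngdn, a regulator of translation. From the Myh6 TSS, Spin1 was 39.6 kb downstream, at the promoter of the adaptor gene Efs, and H3K4me3 29.8 kb downstream, at Cmtm5. The slow and cardiac genes thus lay in a stretch without either peak, which measured 87.2 kb for Spin1 and 77.1 kb for H3K4me3.

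The window around Myh6 and Myh7 (chr14:54891921-55044626) spans 153 kb and held 4 Spin1 and 5 H3K4me3 peaks, none in a myosin gene. Spin1 covered 6.33% of this window and H3K4me3 10.58%, but these values came from the flanks. With flanks of 10 kb, no Spin1 peak and 1 H3K4me3 peak were left, and H3K4me3 covered 0.79%, so both fell below the genome. With flanks of 100 kb, there were 9 and 11 peaks. With only the 50% of peaks scored highest, 2 Spin1 peaks were left. Both peaks were found at the promoters of Pabpn1, which encodes a poly(A)-binding protein, and Ngdn, with scores of 3100 for both antibodies. Spin1 scores were lower at Slc22a17, a transporter family gene, with 883, and at Efs, with 1087. Cmtm5 had a weak H3K4me3 peak with a score of 64.5 and no Spin1. The noncoding genes inside and beside the pair, Mir208a, Mir208b and the antisense gene Mhrt, had no peak. Peaks were thus limited to the neighbors of the cardiac pair.

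Myh7b encodes a slow-type isoform with low levels in most muscles (chr2:155611243-155634307, plus strand). Its promoter had no peak, but an H3K4me3 peak of 1650 bp with a score of 525 (chr2:155612336-155613985) began 1093 bp downstream of the TSS, 93 bp outside the promoter window, and covered exons 3 to 4. A further H3K4me3 peak with a score of 109 (chr2:155629088-155629871) lay over exons 28 to 29. No peak was found at Mir499, the microRNA gene in an intron of Myh7b. The nearest Spin1 peak was 17.8 kb upstream, at the promoter of Gss, the glutathione synthetase gene, with a score of 2841. H3K4me3 in Myh7b was thus internal to the gene and without Spin1. When TSSs of predicted transcripts were added, the peak at exons 3 to 4 lay at a promoter.

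**Figure D3:**
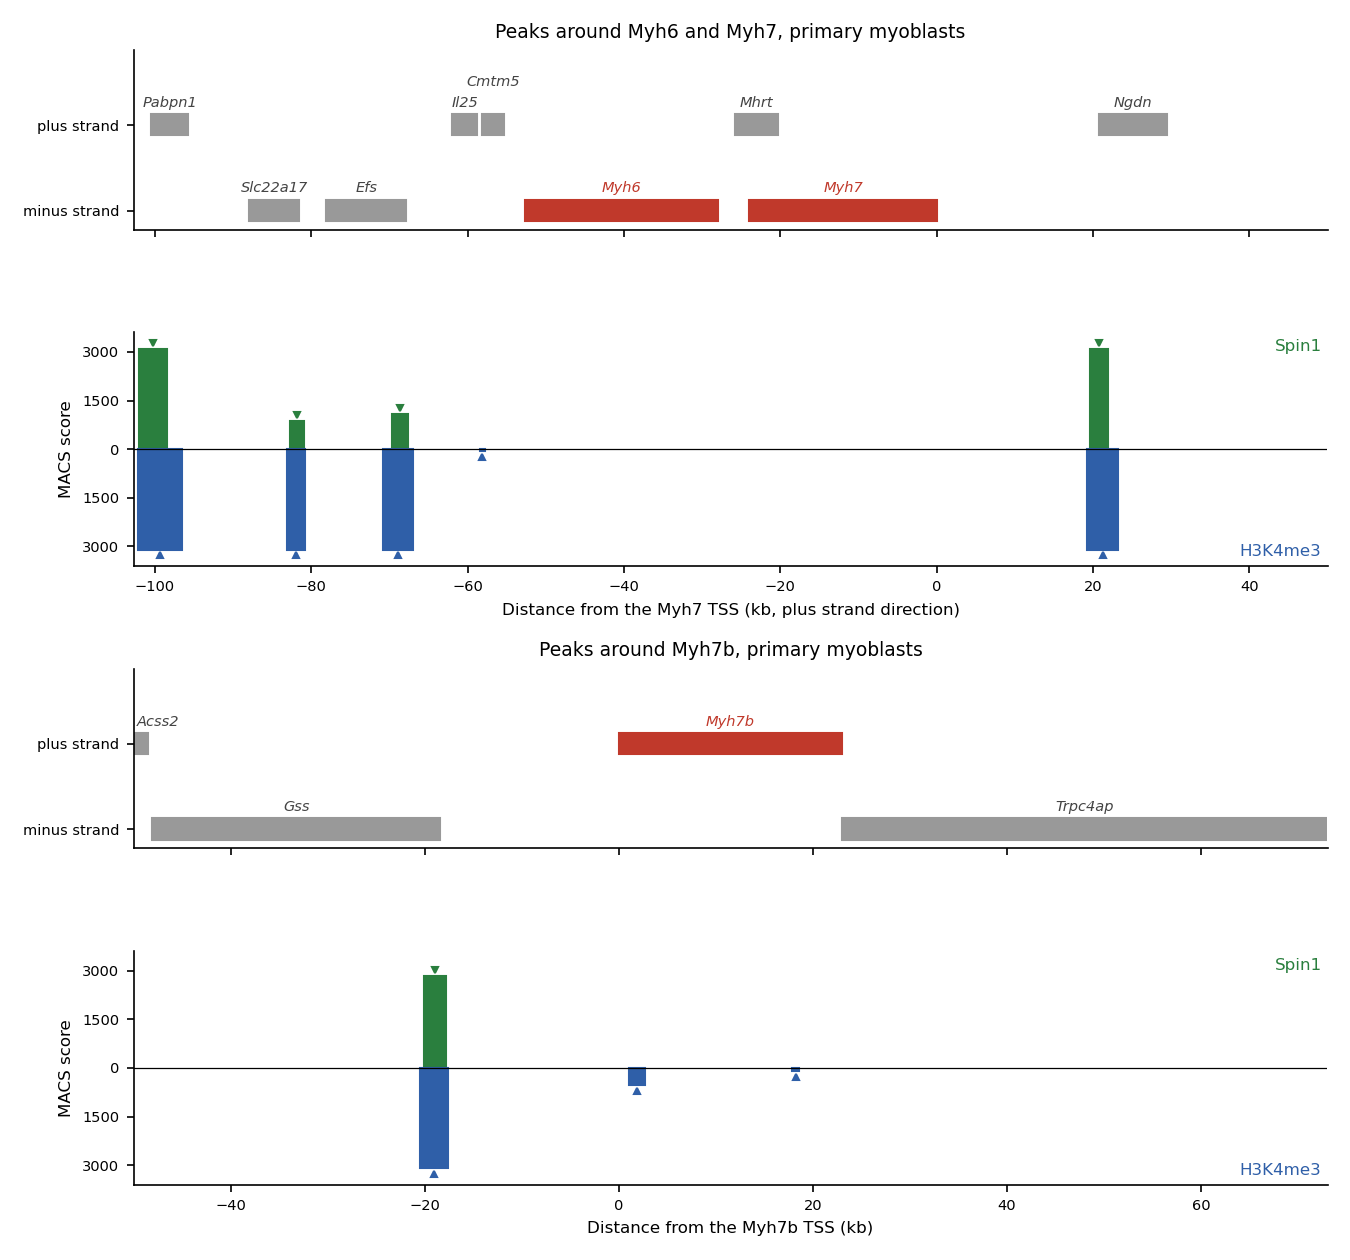
Genes and peaks around Myh6 and Myh7 (upper pair) and around Myh7b (lower pair), in kb from the Myh7 and the Myh7b TSS. Spin1 is drawn upward and H3K4me3 downward with the MACS score as height, and myosin heavy chain genes are red. Spin1 peaks are seen at neighboring genes only, and Myh7b has 2 H3K4me3 peaks inside the gene.

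The Myh7b window (chr2:155561243-155684307) spans 123 kb, with 1 Spin1 and 3 H3K4me3 peaks, which covered 1.90% and 4.29% of it. With flanks of 10 kb, the Spin1 peak, that at Gss, was lost, so Spin1 fell from above the genome to 0, and with flanks of 100 kb there were 5 Spin1 and 7 H3K4me3 peaks. With only the 50% of peaks scored highest, 1 H3K4me3 peak was left. Acss2, an acetyl-CoA synthetase gene, and Trpc4ap, a gene of a channel-associated protein, reach into it and had both peaks at promoters outside of it. Across the 3 windows, 7 Spin1 peaks were found, of which 1 was in a myosin heavy chain gene. All 7 lay fully inside H3K4me3 peaks, as did 79.0% (78.3 to 79.6%) of the 17106 Spin1 peaks of the genome. Of the 16 H3K4me3 peaks, 8 were in myosin heavy chain genes. H3K4me3 was thus spread over 4 members and Spin1 was limited to Myh3.

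Distances to the nearest peak ordered the genes. The median over the 9 genes was 89.8 kb for Spin1 and 19.3 kb for H3K4me3, against 456 bp and 0 bp over all genes. More than 10 kb from any Spin1 peak were 8 of the 9 TSSs, all but that of Myh3, and 43.2% of those of all genes. More than 50 kb were 5 of 9, and 28.5% of all genes. These 5 were Myh2, Myh1, Myh13, Myh4 and Myh8, by rising distance. They all lie in the same gap between Spin1 peaks on chromosome 11, so their distances are not independent. For H3K4me3, 5 of the 9 TSSs and 30.8% of those of all genes were more than 10 kb away, and 0 of 9 and 17.9% of all genes more than 50 kb. Myh8 was passed in distance to Spin1 by 13.3% of the protein-coding genes, Myh4 by 14.4%, Myh13 by 16.4%, Myh1 by 17.1% and Myh2 by 19.9%. For Myh6, Myh7, Myh7b and Myh3, the shares were 28.2%, 34.2%, 35.0% and 43.1%.

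**Figure D4:**
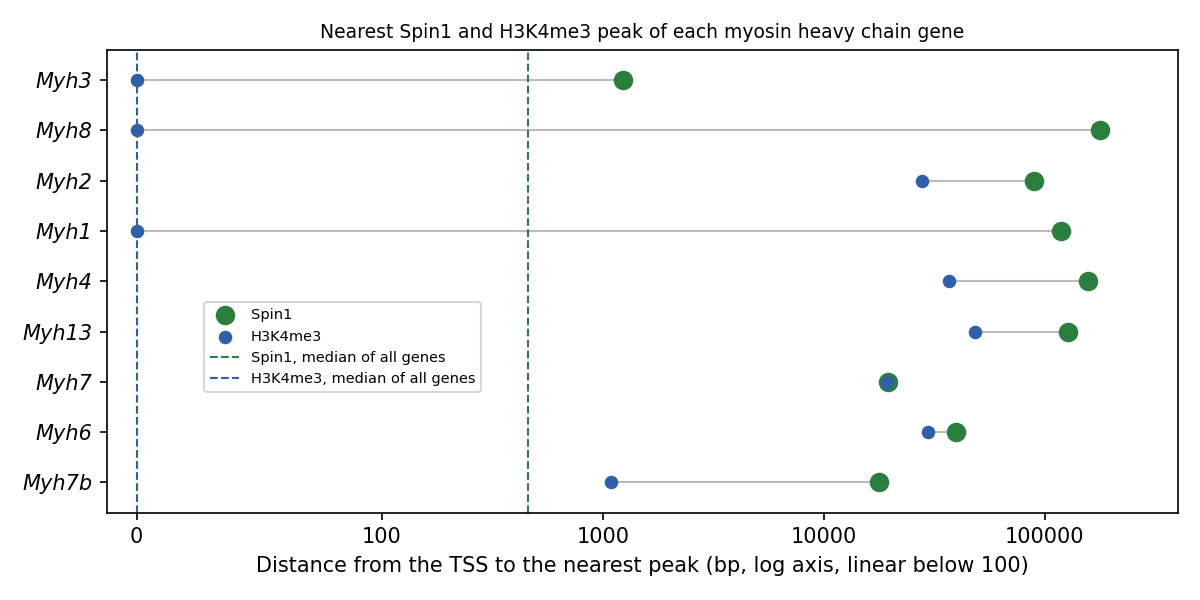
Distance from the TSS of each gene to the nearest Spin1 (green) and H3K4me3 (blue) peak in bp, on a log axis that is linear below 100 bp. Dashed lines are the medians over all 26182 genes, 456 bp for Spin1 and 0 bp for H3K4me3. For Myh3, Myh8 and Myh1 the H3K4me3 distance is 0, and the Spin1 distance exceeds 10 kb in all genes but Myh3.

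Exact copies within the family were counted, since reads from a copy cannot be placed at a single gene. Of all runs of 50 bases in the promoter windows, at most 2.15% (Myh6) were found in another member, and none at Myh1, Myh2, Myh3, Myh4, Myh7 and Myh13. Over the genes with 1 kb on each side, the share was between 0.0240% at Myh7b and 5.91% at Myh7. Bases in lower case, which mark repeats in the reference sequence, made up 5.90% (Myh13) to 22.8% (Myh2) of the promoter windows, with 17.8% at Myh1 and 16.2% at Myh6. The promoters thus held few exact copies of each other but some repeats, and whether reads can be placed there was not tested, since copies elsewhere in the genome were not searched.

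Members were set beside other genes of the contractile apparatus. Of 5 further myosin II heavy chain genes, 2 had Spin1 and 4 had H3K4me3 at the promoter. Those with Spin1 were Myh9 and Myh10, which encode nonmuscle myosins and had Spin1 scores of 3100, and Myh15 had neither peak. Among 15 partners of the thick filament, 8 had Spin1 and 12 had H3K4me3. The highest Spin1 scores, 3100, were found at Ttn (titin), Mylpf (fast regulatory light chain) and Myl4 (embryonic and atrial light chain). Myl2, Myl3 and Mybpc3, of slow and cardiac muscle, had neither peak. Of 17 thin filament genes, 15 had both, led by the tropomyosin genes Tpm2, Tpm1 and Tpm3, and Tnni3 (cardiac troponin I) and Neb (nebulin) had neither. The absence of Spin1 at all 9 promoters of the sarcomeric heavy chains thus stood beside Spin1 at 88.2% of thin filament genes and at 53.3% of thick filament partners, the latter close to the 50.7% of all genes and the 56.7% of protein-coding genes. With only the 50% of peaks scored highest, Spin1 was left at 3 of the 15 partners, 10 of the 17 thin filament genes and 38.1% of all genes, and H3K4me3 at 2 of the 5 further myosin II genes. When the peak center had to lie in the promoter window, H3K4me3 was left at 5 of the 15 partners and 6 of the 17 thin filament genes, both below the 50.5% of all genes, and Spin1 at 1 of the 5 further myosin II genes.

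Genes that act on myosin heavy chains or their promoters were also counted. All 10 genes of myosin folding and assembly had both peaks, with scores of 3100 for Spin1 at the chaperone genes Hsp90ab1 and Hsp90aa1 and at Trim55, a ubiquitin ligase gene of the sarcomere. Of 24 regulators of myosin heavy chain genes, 22 had Spin1 and 24 had H3K4me3. Wide Spin1 peaks with a score of 3100 were found at Purb (7201 bp) and Mef2d (5064 bp), both genes of transcriptional regulators. Mafa and Gata4, singled out after their values were seen, had H3K4me3 only. At promoters, 91.7% of the regulators thus had Spin1, against 50.7% of all genes and none of the 9 members. CpG content was not counted for these lists. Of the 9 members, 7 had at most 4 CpG, a class in which 6.51% of protein-coding promoters had Spin1.

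**Figure D5:**
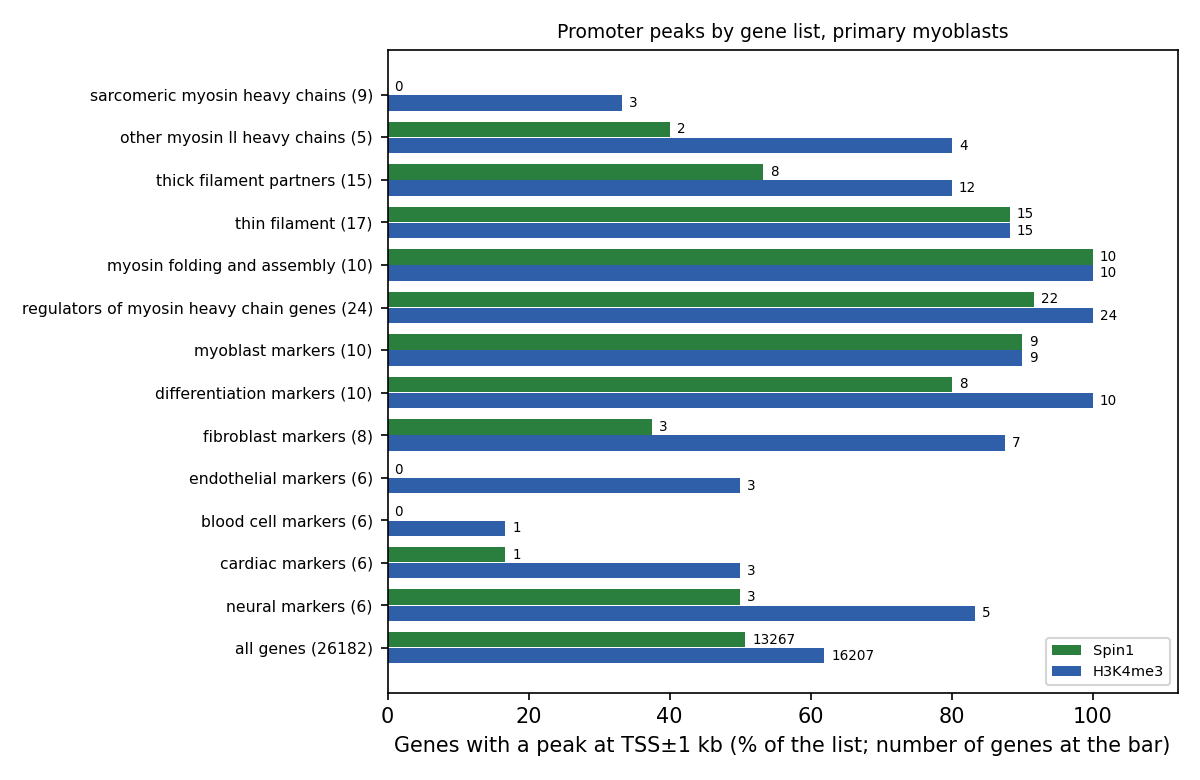
Share of each gene list with a Spin1 (green) or H3K4me3 (blue) peak at TSS±1 kb, in percent from 0, with the number of genes at each bar and the size of the list in parentheses. The sarcomeric myosin heavy chains, at 0 of 9 and 3 of 9, lie below all genes (50.7% and 61.9%) for both antibodies.

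The label of the cells was checked against markers. Of 10 myoblast markers, 9 had both peaks, with the widest Spin1 peaks at 3100 in Chrna1, Pax7 and Itga7, and Cdon had neither. Of 10 markers of differentiated muscle, 8 had Spin1 and 10 had H3K4me3, and the leading ones were Myog, Actn3 and Mymk. Spin1 at Myog and at contractile genes was thus found in the same libraries in which the sarcomeric heavy chain promoters lacked it. Endothelial markers had Spin1 at 0 of 6 and H3K4me3 at 3, with Pecam1, Tie1 and Emcn without peaks. Blood markers had Spin1 at 0 of 6 and H3K4me3 at 1, with Ptprc, Cd3e, Itgam and Adgre1 among those without peaks. Of 8 fibroblast markers, 3 (Col1a2, Pdgfra and Col1a1) had Spin1 and 7 had H3K4me3, all but Dpt. Cardiac markers had Spin1 at 1 of 6 (Hand2) and H3K4me3 at 3, with Nppa, Nppb and Myl7 without peaks. Of 6 neural markers, 3 (Sox2, Pax6 and Tubb3) had Spin1 and 5 had H3K4me3, all but Gfap. For comparison, 50.7% of all genes had Spin1 and 61.9% had H3K4me3 at the promoter. Myoblast and differentiation markers were above these shares, and endothelial, blood and cardiac markers were below them. Fibroblast markers were below for Spin1 only. Neural markers were close to all genes for Spin1 and above them for H3K4me3. The lists are small and were not tested against all genes, so these counts do not settle the label. The part of fibroblasts in the peaks of the 9 genes was not tested.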

How the data were processed

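The authors mapped reads to mm10 with Bowtie2 and called peaks for each antibody with MACS 1.4.2, using input as control and discarding peaks with an FDR above 1%. The deposited values are peak positions and a score, which is -log10 of the p-value multiplied by 10. The other deposited columns used give where a peak begins and ends. Scores grow with depth and width and were compared within a list only. Positions are given from 1 on GRCm38. Genes, TSSs and exons came from curated transcripts of RefSeq, promoter sequences from its GRCm38.p6 table, and antisense gene starts from GENCODE on the same build. An overlap of at least 1 bp with TSS±1 kb of any curated transcript made a gene occupied, and gene bodies were treated alike. Windows reached 50 kb beyond the outer genes. Distances run from the TSS to the nearest peak base. Shares have 95% Wilson intervals for counting error only. TATAAA and CANNTG were searched on both strands. The overlap script was tested on simulated data. The members and lists were chosen with earlier results of these data known. The genes named were the 9 members, the genes of each list with Spin1 at the promoter where at most 5 (otherwise the 3 with the highest score, ties by width), the genes of each list without H3K4me3 where at most 5, and neighbors with a peak. Some genes that this rule names are not reported here. The alternatives were promoter windows, TSS sets, peak centers, score thresholds and flanks. Python 3.11.15, NumPy 2.4.6, SciPy 1.17.1, pysam 0.24.0 and matplotlib 3.10.9 were used.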

Additional observations from a re-analysis of the deposited data

How the results depend on the processing

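All 125 alternatives for 20 results were planned. Of these, 86 left the result within its interval or within 1.5 times the count, and 39 moved it. None reversed a count or share taken alone, but the side relative to all genes or the genome changed in places. By peak center, H3K4me3 at thick and thin filament genes fell from above all genes to below. With the 50% of peaks with the highest score, so did Spin1 at thick filament partners. With other flanks, the cover of each window crossed the genome value for at least 1 antibody. With TSS±2 kb, 1 member had Spin1 and 1 both peaks at the promoter, Myh3 in each case. With the 50% of peaks with the highest score, 1 member had H3K4me3 at the promoter. In the gene body, 0 members had Spin1 and 1 had H3K4me3, without a count of other genes to set beside them. At the promoter, 3 thick filament partners had Spin1 and 2 other myosin II heavy chains had H3K4me3. Under this setting, the chromosome 11 window held 1 Spin1 and 2 H3K4me3 peaks, the chromosome 14 window 2 Spin1 peaks and the Myh7b window 1 H3K4me3 peak. When the peak center had to lie in the window, 1 other myosin II heavy chain had Spin1, and 5 thick filament partners and 6 thin filament genes had H3K4me3. With a score of at least 100, 3 H3K4me3 peaks remained in the chromosome 11 window. With flanks of 10 kb, Spin1 peaks numbered 1, 0 and 0 in the chromosome 11, chromosome 14 and Myh7b windows, and 1 H3K4me3 peak was in that of chromosome 14. With flanks of 100 kb, Spin1 peaks numbered 4, 9 and 5, and H3K4me3 peaks 11 on chromosome 14 and 7 around Myh7b. The Spin1 share of all genes was 50.1% with TSS±0.5 kb, 51.4% with TSS±2 kb, 49.7% with 1 kb upstream to 0.1 kb downstream, 49.9% with 1 TSS per gene, 51.4% with predicted TSSs, 46.5% by peak center and 38.1% with the 50% of peaks with the highest score. The H3K4me3 share was 61.2%, 63.0%, 61.1%, 61.2%, 62.7%, 50.5% and 56.6% under these settings, in this order, and 61.0% with a score of at least 100. The cause of these shifts was not tested. A library of low depth would miss weak or narrow peaks, and the depth is unknown. No paired analysis was possible because each antibody has a single library.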
